A study of Mus musculus with 6 samples.

Results

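The p53 pathway genes described here are Trp53, which encodes the transcription factor p53, and 9 genes that p53 is known to switch on, Mdm2, Ccng1, Trp53inp1, Aen, Phlda3, Plk2, Sesn1, Ephx1 and Zmat3. They were chosen by gene symbol. Each of the 9 targets had 1 probe set annotated to it alone, so 9 of the 10 genes were measured among 19937 genes in all. Trp53 itself was not analysed here.

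The cells were lineage-depleted (Lin-) mouse hematopoietic progenitors of the C57BL6 strain. All came from Rosa26rtTA animals, in which the reverse tetracycline transactivator is made from the Rosa26 locus, so every culture could respond to doxycycline. All cultures received stem cell factor at 50 ng/ml, interleukin 3 at 20 ng/ml, Flt3 ligand at 50 ng/ml and interleukin 11 at 50 ng/ml, a lentiviral vector 24 h after isolation, and doxycycline at 1 µg/ml 24 h after the vector. The EVI1 group carried a tetracycline-responsive vector for EVI1, a zinc finger factor of the Mecom locus, with EGFP behind an internal ribosome entry site, and the EGFP group carried the same kind of vector with EGFP alone. Cells that showed EGFP were then sorted for RNA. The induction lasted 20 h by the design text and 24 h by the treatment protocol. Each group had 3 arrays, and nothing says whether these came from separate animals, cultures or transductions, so p-values measure only the spread between these arrays, which may be technical.

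The p53 protein is held at a low level in unstressed cells by the ubiquitin ligase Mdm2, whose own gene is a p53 target, and is stabilised by DNA damage kinases such as Atm, Atr and the checkpoint kinases. Stabilised p53 binds DNA as a tetramer and raises genes that arrest the cell cycle, trigger cell death, repair DNA or adjust metabolism. Hematopoietic stem and progenitor cells are sensitive to p53, which limits their expansion and holds stem cells in quiescence. Because p53 is controlled mainly as a protein, the transcripts of its targets are a common readout of its activity, although most of these genes have other regulators as well.

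Promoter sequences were searched for the letters that p53 recognises. A p53 binding site is built of 2 copies of a 10-base element, the p53 half-site, which allows several letters at most positions and reads as the same motif on both strands. RefSeq windows (build GRCm38.p6) of 250 bases before to 50 after a gene start were found for 8 of the 10 genes, in 10 windows, and not for Trp53inp1 and Zmat3. A half-site was found in windows of 5 genes, Trp53 (not analysed on the arrays here), Mdm2, Ccng1, Sesn1 and Aen. Of all 32851 windows of this length, 8.36% held one. Genes are counted here while the shares are of windows, and Sesn1 and Aen had 2 windows each. No window of the 10 genes held 2 half-sites with at most 13 bases between them, which 0.0731% of all windows did. The E-box CACGTG, a site of Myc family factors that is its own reverse complement, was found in windows of Trp53 and Aen, and in 7.15% of all windows. AGATAA, searched on both strands because the first zinc finger domain of EVI1 binds GATA-like DNA, was in none of the 10 windows and in 11.2% of all. None of these motifs overlapped another in these windows. A match describes letters and does not show binding.

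The following windows are printed 5′ to 3′ on the gene's strand because they stand for the different outcomes among the 9 genes: Mdm2, Ccng1 and Sesn1 did not pass the test between the groups, Aen fell and Ephx1 rose. Capitals mark the p53 half-site. The windows lie at chr10:117710709-117711008 for Mdm2 (- strand), chr11:40755237-40755536 for Ccng1 (- strand), chr10:41887189-41887488 for Sesn1 (+ strand, the second of 2 annotated starts), chr7:78895677-78895976 for Aen (+ strand, the first of 2 annotated starts, whose windows overlap and hold the same half-site) and chr1:181017520-181017819 for Ephx1 (- strand).
Mdm2: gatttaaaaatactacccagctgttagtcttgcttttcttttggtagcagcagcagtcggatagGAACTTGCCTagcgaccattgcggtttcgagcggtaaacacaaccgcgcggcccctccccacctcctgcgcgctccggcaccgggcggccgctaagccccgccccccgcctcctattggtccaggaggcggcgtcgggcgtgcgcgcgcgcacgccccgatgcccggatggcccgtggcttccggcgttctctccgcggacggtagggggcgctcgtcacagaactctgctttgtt
Ccng1: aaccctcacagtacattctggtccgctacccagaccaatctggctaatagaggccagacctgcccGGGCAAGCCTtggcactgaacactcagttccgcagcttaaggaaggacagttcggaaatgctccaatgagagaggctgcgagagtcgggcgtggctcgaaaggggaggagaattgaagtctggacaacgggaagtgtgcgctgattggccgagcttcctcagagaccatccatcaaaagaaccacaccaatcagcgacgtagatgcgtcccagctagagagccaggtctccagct
Sesn1: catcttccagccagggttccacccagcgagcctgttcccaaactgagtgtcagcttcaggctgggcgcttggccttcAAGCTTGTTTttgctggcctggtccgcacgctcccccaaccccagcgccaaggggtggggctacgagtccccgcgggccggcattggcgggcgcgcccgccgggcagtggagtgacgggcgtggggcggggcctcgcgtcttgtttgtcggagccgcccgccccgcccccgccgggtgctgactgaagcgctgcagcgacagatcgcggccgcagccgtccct
Aen: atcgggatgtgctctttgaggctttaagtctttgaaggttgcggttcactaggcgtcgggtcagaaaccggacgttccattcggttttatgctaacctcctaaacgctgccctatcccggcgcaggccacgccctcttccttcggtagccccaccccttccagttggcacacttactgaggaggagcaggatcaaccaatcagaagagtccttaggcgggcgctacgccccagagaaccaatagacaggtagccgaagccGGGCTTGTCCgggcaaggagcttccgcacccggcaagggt
Ephx1: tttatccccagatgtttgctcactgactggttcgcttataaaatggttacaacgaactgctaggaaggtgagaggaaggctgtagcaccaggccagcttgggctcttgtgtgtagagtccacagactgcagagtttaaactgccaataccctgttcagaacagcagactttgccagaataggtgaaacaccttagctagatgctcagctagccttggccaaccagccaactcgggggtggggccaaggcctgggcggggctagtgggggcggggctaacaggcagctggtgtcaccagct
The half-site of Mdm2, GAACTTGCCT, spans positions -186 to -177 from the start of the gene, that of Ccng1, GGGCAAGCCT, spans -185 to -176, and that of Sesn1, AAGCTTGTTT, spans -173 to -164. The half-site of Aen, GGGCTTGTCC, lies at 10 to 19 from the first start and at -121 to -112 from the second. The Ephx1 window held no half-site and no E-box. Neither motif was in the first Sesn1 window or in those of Phlda3 and Plk2, genes that also did not pass. These windows are not printed, and any link between a half-site and the outcome was not tested.

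**Figure D1:**
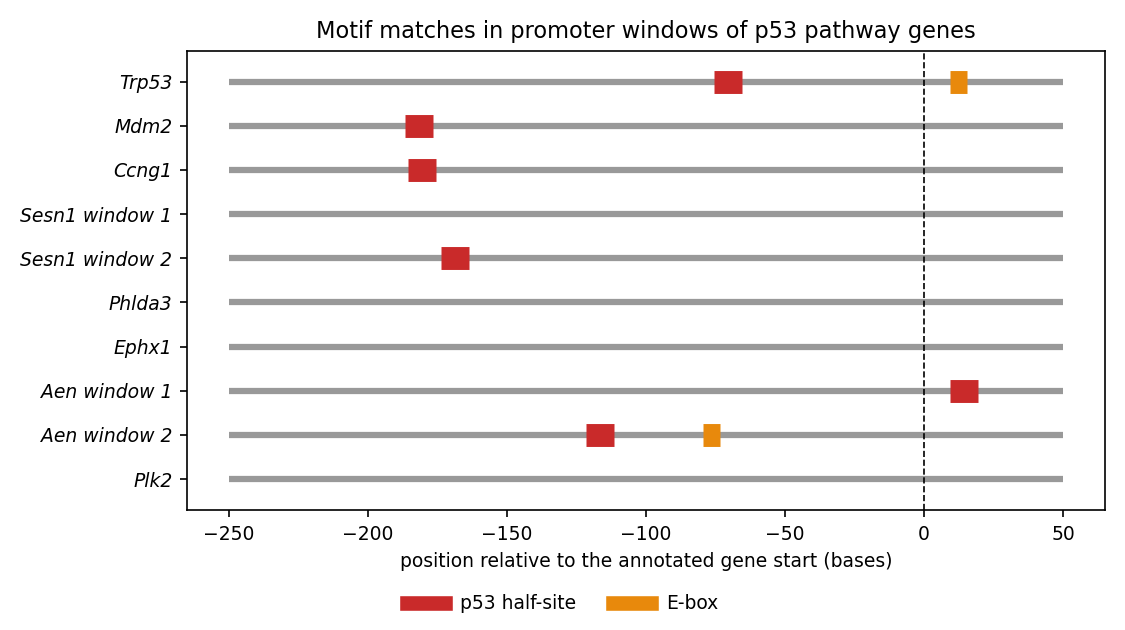
Positions of the p53 half-site (red) and of the E-box (orange) in the 10 promoter windows, each drawn as a grey bar from 250 bases before to 50 after the annotated start (horizontal axis, bases). Windows of 5 genes carry a half-site, and those of Phlda3, Ephx1 and Plk2 carry neither motif.

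Before the members, the arrays themselves are described. Values are log2 intensities, listed in the order of the replicate numbers, on which a difference of 1 is a doubling, and the 6 array medians lay between 7.24 and 7.31. The number of arrays, 3 per group, limits the precision. EGFP replicate 2 was the least like its group, with the lowest mean correlation with its own group (r = 0.979 across genes) and the lowest array weight (0.452). Mecom, the gene the vector carries, showed no rise with EVI1: its brighter probe set read 6.39, 7.53 and 6.86 with EGFP and 6.29, 6.18 and 6.49 with EVI1 (log2 difference -0.60 ± 0.26 SE, limma adjusted p = 0.166), so groups and directions here are those of the labels, and whether the probes read the transduced sequence was not tested. Of the progenitor markers, 9 were measured and none lay under the dim level, taken as the 95th percentile of 1027 olfactory receptor genes (6.95 for EGFP means and 6.99 for EVI1 means). Of 9 lymphoid markers, 6 lay under it in both groups. Both means of the Mecom probe set, 6.92 with EGFP and 6.32 with EVI1, were also under the dim level.

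The p53 targets did not move as one group. Of the 9 measured genes, Trp53inp1 and Ephx1 rose, Aen fell, and Mdm2, Ccng1, Phlda3, Plk2, Sesn1 and Zmat3 did not pass the test (limma, Benjamini-Hochberg adjusted p under 0.05 over all genes). Over all genes the same test called 18.2%, with 9.06% higher and 9.18% lower in the EVI1 arrays. Whether 3 of 9 differs from that share was not tested. The median log2 fold change of the 9 genes was 0.14, beside 0.0060 over all genes. All EVI1 arrays lay above all EGFP arrays for 2 members and below them for 2, and 32.6% of all genes had groups that did not overlap (16.1% above and 16.5% below). With the replicate number as a block the same 3 members were called, while the background rose to 21.9% (10.9% higher and 11.0% lower).

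**Figure D2:**
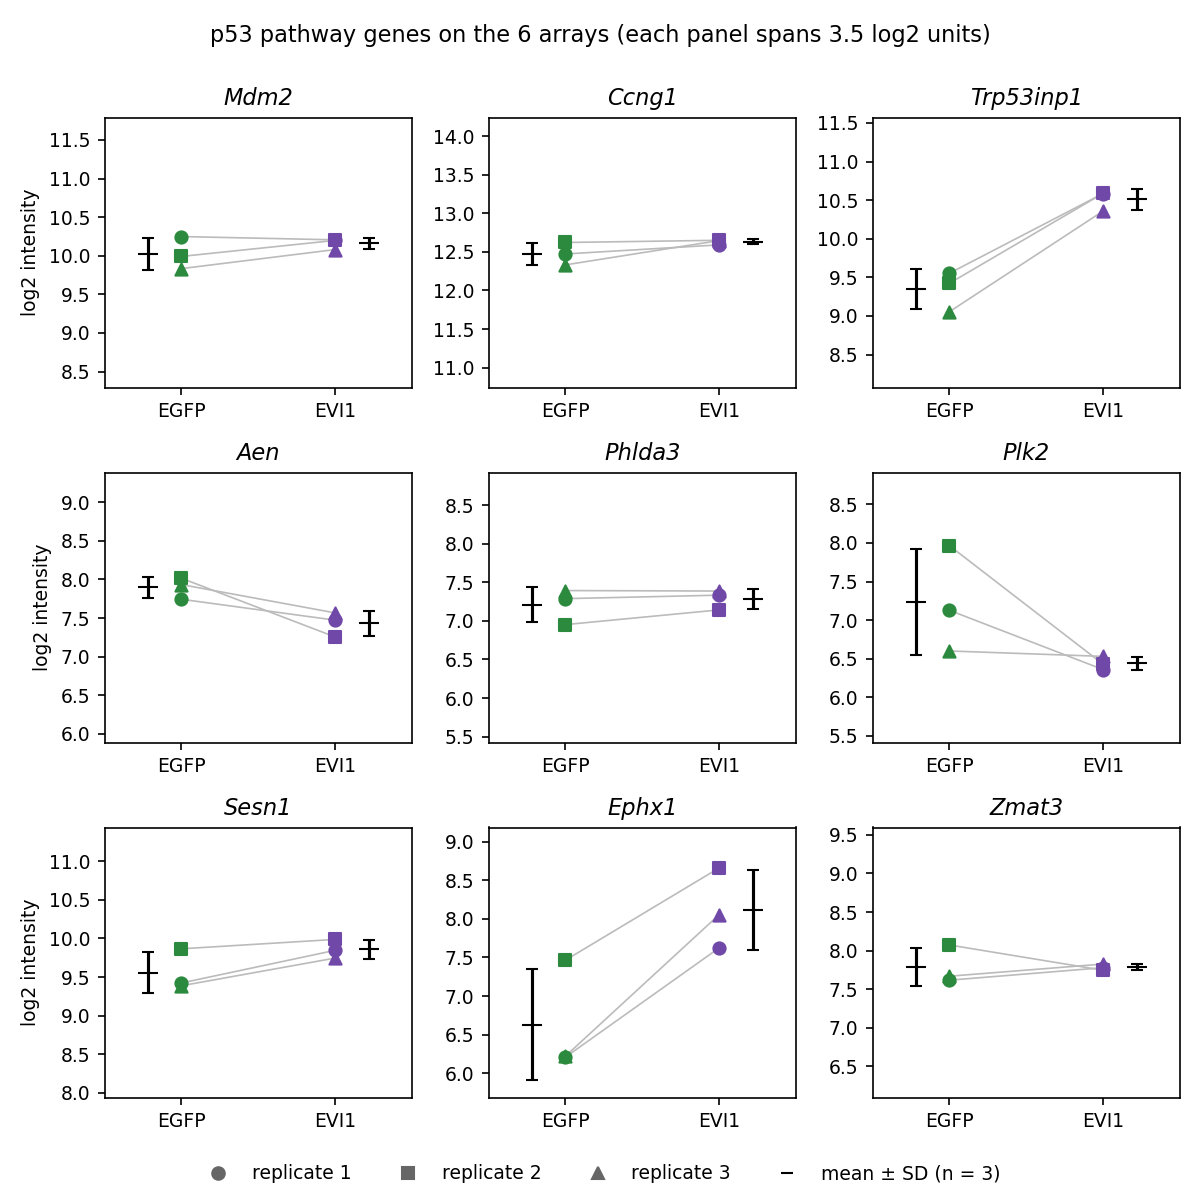
Log2 intensity (vertical axis, each panel spanning 3.5 units) of the 9 measured p53 pathway genes on each EGFP and EVI1 array. Symbols give the replicate number, grey lines join arrays of the same number, and black bars are the mean ± SD of 3 arrays; the groups of Trp53inp1, Ephx1, Aen and Plk2 do not overlap.

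The feedback genes of the pathway were close to level. Mdm2, the ubiquitin ligase that binds p53 and marks it for degradation, read 10.25, 9.99 and 9.83 with EGFP and 10.21, 10.20 and 10.08 with EVI1. The groups overlapped, with EGFP replicate 1 the highest of all 6 arrays. The log2 difference was 0.14 ± 0.13 (SE, n = 3 arrays per group), with a 95% interval from -0.16 to 0.43 and an adjusted p of 0.592. A rise of Mdm2 by 1 log2 unit, a doubling, lies outside that interval, and 55.1% of all genes differed by more in either direction.

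Ccng1, which encodes cyclin G1 and acts in the same loop by bringing a phosphatase to Mdm2, read 12.47, 12.62 and 12.33 with EGFP and 12.59, 12.65 and 12.65 with EVI1. EGFP replicate 2 lay among the EVI1 values, and the other EGFP arrays lay below them. The difference was 0.15 ± 0.11 (interval -0.10 to 0.41, adjusted p = 0.456). A doubling lies outside this interval too.

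Trp53inp1 showed the clearest change among the members. It encodes a stress-induced nuclear protein that helps p53 become phosphorylated and takes part in cell cycle arrest, death and autophagy. Its values were 9.55, 9.42 and 9.05 with EGFP and 10.59, 10.59 and 10.36 with EVI1. The lowest EVI1 value stood 0.805 above the highest EGFP value. The mean went from 9.34 ± 0.26 to 10.51 ± 0.13 (SD, n = 3), a 2.25-fold rise (log2 1.17 ± 0.15 SE, adjusted p = 0.00138). Differences between arrays of the same number were 1.03, 1.16 and 1.30, and the call held in all 6 fits that left out 1 array, with adjusted p between 0.00177 and 0.00775. Of all genes, 2.16% had a higher log2 fold change.

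Of the members tied to cell death and survival, Aen fell and Phlda3 did not pass, and whether they differ in their change was not tested. Aen encodes the apoptosis-enhancing nuclease, which digests DNA in dying cells. It read 7.74, 8.01 and 7.93 with EGFP and 7.47, 7.26 and 7.57 with EVI1, so that every EVI1 value lay below every EGFP value. The mean went from 7.90 ± 0.14 to 7.43 ± 0.16 (SD, n = 3), a log2 change of -0.47 ± 0.13 (SE, adjusted p = 0.0368, 0.0428 with a replicate block). The fall was small and its call rested on most of the arrays. It did not pass without EGFP replicate 2 (-0.41, adjusted p = 0.0726), EGFP replicate 3 (-0.45, 0.111), EVI1 replicate 1 (-0.49, 0.0879), EVI1 replicate 2 (-0.38, 0.128) or EVI1 replicate 3 (-0.53, 0.0566). Of all genes, 10.2% had a lower log2 fold change than Aen.

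Phlda3, a small membrane-binding protein that competes with the survival kinase Akt for lipids, read 7.29, 6.95 and 7.39 with EGFP and 7.33, 7.14 and 7.39 with EVI1. In both groups replicate 2 was the lowest. The difference was 0.076 ± 0.14 (interval -0.25 to 0.40, adjusted p = 0.820), and its sign turned with array weights (-0.0072). The Phlda3 means, 7.21 with EGFP and 7.29 with EVI1, were close to the dim level.

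Plk2, a polo-like kinase with roles in centriole duplication and in the response to replication stress, read 7.13, 7.96 and 6.60 with EGFP and 6.36, 6.43 and 6.53 with EVI1. The EVI1 arrays agreed closely and lay under the EGFP arrays, which were spread over more than 1 log2 unit. The SD was 0.69 in the EGFP and 0.085 in the EVI1 arrays. The difference of -0.79 ± 0.29 did not pass (interval -1.47 to -0.11, adjusted p = 0.114). Its size moved with single arrays: it was -0.42 without EGFP replicate 2 (adjusted p = 0.119) and -1.11 without EGFP replicate 3, where it passed (0.0258). The EVI1 mean, 6.44, was under the dim level, so the size of the difference is uncertain.

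Of the members that act on metabolism and stress defence, Ephx1 rose and Sesn1 did not pass. Ephx1 encodes microsomal epoxide hydrolase, which detoxifies reactive epoxides. It read 6.21, 7.46 and 6.22 with EGFP and 7.62, 8.66 and 8.05 with EVI1. Replicate 2 was the highest array of each group, and the highest EGFP value lay only 0.16 under the lowest EVI1 value. The mean went from 6.63 ± 0.72 to 8.11 ± 0.52 (SD, n = 3), a 2.79-fold rise (log2 1.48 ± 0.37 SE, adjusted p = 0.0264).

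Set against its same-numbered EGFP array, each EVI1 array had more Ephx1, by 1.41, 1.19 and 1.83, and with the replicate block the SE was 0.14 and the adjusted p 0.00103. Without the block the rise did not pass when EGFP replicate 1 (1.27, adjusted p = 0.0806), EGFP replicate 3 (1.27, 0.0988), EVI1 replicate 2 (1.21, 0.0895) or EVI1 replicate 3 (1.51, 0.0923) was left out. Its EGFP mean was under the dim level, and 1.32% of all genes had a higher log2 fold change.

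Sesn1, a sestrin that restrains the growth kinase mTORC1 and supports peroxide defence, read 9.42, 9.87 and 9.39 with EGFP and 9.85, 9.99 and 9.75 with EVI1. EGFP replicate 2 lay among the EVI1 values and the other EGFP arrays below them. The difference was 0.30 ± 0.15 (interval -0.05 to 0.65, adjusted p = 0.247). Without EGFP replicate 2 it was 0.45 and passed (adjusted p = 0.0303).

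Zmat3, a zinc finger protein that binds RNA and acts on splicing and transcript stability, read 7.62, 8.07 and 7.67 with EGFP and 7.78, 7.75 and 7.83 with EVI1. EGFP replicate 2 was the highest of the 6, and the 3 EVI1 values sat between it and the other EGFP values. The difference was -0.0026 ± 0.14 (interval -0.32 to 0.32, adjusted p = 0.995), and 99.0% of all genes differed by more. EGFP replicate 2 was thus the highest EGFP array for Ccng1, Aen, Plk2, Sesn1, Ephx1 and Zmat3 and the lowest for Phlda3.

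**Figure D3:**
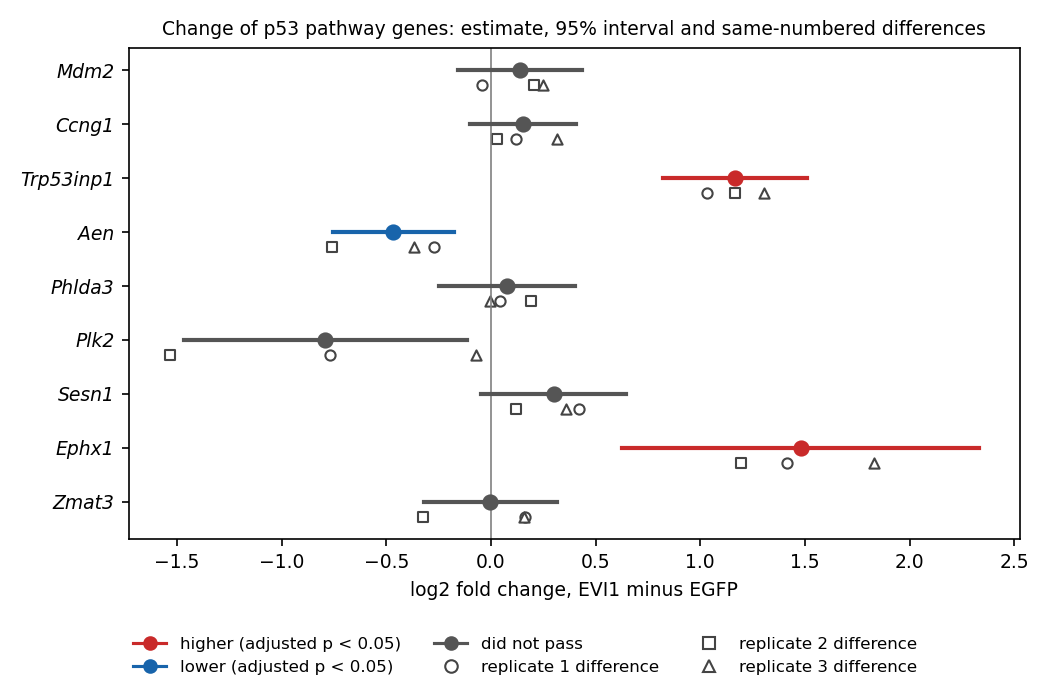
Log2 fold change, EVI1 minus EGFP (horizontal axis), of the 9 measured genes: filled points are the limma estimate, lines its 95% interval, and open symbols the differences between arrays of the same replicate number. Trp53inp1 (1.17) and Ephx1 (1.48) lie to the right of 0 with all 3 differences, and Aen (-0.47) to the left. Plk2 (-0.79) also lies to the left with its interval and all 3 differences, though it did not pass.

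Genes with the pattern nearest to Mdm2 and to Trp53inp1 over the 6 arrays were found by the root mean square difference of values centred on each gene's own mean. Nearest to Mdm2 were A830019P07Rik (0.030 log2 units), Wbp1l (0.031) and Tmem203 (0.032). Their log2 changes were 0.1, 0.12 and 0.12, and none passed (limma adjusted p = 0.709, 0.647 and 0.6765). A830019P07Rik read 5.97 to 6.34 on the 6 arrays, under the dim level. Nearest to Trp53inp1 were Cpt2, an enzyme of mitochondrial fatty acid oxidation (0.059), Dgka, a diacylglycerol kinase (0.059), and Ccndbp1, which binds cyclin D (0.079). Those 3 rose by 1.09, 1.20 and 1.10. Genes picked for their likeness on these same arrays change much as the member does by the choice itself, so these changes are no separate support.

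Relatives of the members were set beside them, since members of a family can be under other control than p53. Of 22 measured relatives 4 rose, 4 fell and 14 did not pass, with a median of 0.10, where 9.06% of all genes rose and 9.18% fell. The epoxide hydrolase Ephx2, which acts on lipid epoxides, rose by 1.20 ± 0.15 (SE, adjusted p = 0.00121), from an EGFP mean under the dim level. Ephx3 rose by 0.58 ± 0.11 with both means under it. Cyclin G2 (Ccng2), a gene of resting cells, went from 8.85 ± 0.18 to 9.46 ± 0.08 (SD, n = 3), a rise of 0.61 ± 0.12 (SE, adjusted p = 0.0105), where Ccng1 did not pass. Whether Ccng2 and Ccng1 differ in their change was not tested. Sesn3, a sestrin under FOXO control, rose by 0.77 ± 0.22 (adjusted p = 0.0435, 0.00348 with a replicate block). It passed without EGFP replicate 2 or EVI1 replicate 1, and not when replicate 1 (0.125) or 3 (0.141) of EGFP or replicate 2 (0.145) or 3 (0.128) of EVI1 was left out, nor with each array centred on its median (0.0625). Sesn2 (0.40 ± 0.22) did not pass.

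Among the kinases related to Plk2, Plk4, which starts centriole duplication, fell by 1.37 ± 0.17 on the log2 scale and the mitotic kinase Plk1 by 1.15 ± 0.18, while Plk3 (-0.36) did not pass. Isg20l2, a nucleolar exonuclease related to Aen, fell by 0.83 ± 0.13 (adjusted p = 0.00403). Mdm4, the partner of Mdm2 that masks the activation domain of p53, read 11.02, 11.05 and 10.86 with EGFP and 10.58, 10.47 and 10.59 with EVI1. The groups were well apart for so small a change, -0.43 ± 0.11 (SE, adjusted p = 0.0231). The Mdm4 call was lost without EGFP replicate 1 (0.0693) or EVI1 replicate 1 (0.0671), 2 (0.0866) or 3 (0.0602). The p53 relative Trp73 (0.15) did not pass. Ephx3, Ccng2, Sesn3, Sesn2, Plk3 and Trp73 were named after their values were seen.

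Upstream of p53, among 36 measured regulators 12 fell, 1 rose (the acetyltransferase Ep300, 0.53 ± 0.13) and 23 did not pass, where 9.18% of all genes fell; the median was -0.09. In the group of kinases and cofactors 6 of 20 fell, 1 rose and 13 did not pass, and of the 16 ligases and binding partners 6 fell and 10 did not pass. Atm, the kinase that senses double-strand breaks, read 9.45, 9.25 and 9.35 with EGFP and 8.34, 8.09 and 8.16 with EVI1. Its groups were separated by 0.91 log2 units, and it fell by 1.15 ± 0.11 (SE, adjusted p = 0.000438). Chek1, the checkpoint kinase of replication stress, fell by 1.71 ± 0.28, Atr, its upstream kinase, by 0.67 ± 0.11, and Hipk2, which phosphorylates p53 for its death response, by 0.83 ± 0.12. These 4 calls held in all 6 fits that left out 1 array. Prkdc (-0.67) and Chek2 (-0.86), further kinases of the damage response, fell as well, though Chek2 did not pass without EVI1 replicate 1 (0.0919) or 3 (0.127).

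Among ligases and binding partners, Usp10, a deubiquitinase of p53, fell by 1.52 ± 0.26, and the mitotic kinase Aurka by 1.27 ± 0.15. Npm1, a nucleolar protein that binds Mdm2 and the Cdkn2a product ARF, fell by 0.58 ± 0.12 (adjusted p = 0.0144), a call lost without EGFP replicate 3 (0.0584) or EVI1 replicate 1 (0.0521) or 3 (0.0615). The phosphatase Ppm1d (-0.39 ± 0.10) and nucleolin (Ncl, -0.38 ± 0.11) also fell, and Ncl did not pass with a replicate block (0.0523). Both passed without EGFP replicate 2 and lost the call without any other array (0.0570 to 0.116 for Ppm1d and 0.0853 to 0.136 for Ncl), and Ppm1d also with an intensity trend (0.0694). Cdkn2a, whose ARF product inhibits Mdm2, was level at 7.16 ± 0.16 and 7.20 ± 0.02 (SD, n = 3; difference 0.04 ± 0.11, adjusted p = 0.891). Without EVI1 replicate 1 or EVI1 replicate 3 the regulators that fell numbered 7, and Ep300 did not pass without any one of the EVI1 arrays (0.0663, 0.0770 and 0.0784). The number of all genes called lower also ranged from 1110 to 2061 over the fits without 1 array. With a replicate block 3 rose and 11 fell, the added rises being Mapk14 (0.0447) and Zfp385a (0.0239). Prkdc, Chek2, Ep300, Ppm1d, Ncl, Mapk14 and Zfp385a were named after their values were seen.

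Other known p53 targets went both ways, as the members did. The 49 measured genes had a median of 0.17, and 11 of them rose and 6 fell. Over all genes 9.06% rose and 9.18% fell, and whether the targets differ from these shares was not tested. Without EGFP replicate 2, 17 rose, and without EGFP replicate 1, EGFP replicate 3 or EVI1 replicate 2, 7 did. The number of all genes called higher moved as well, from 1179 to 2037 over the fits without 1 array. Cdkn1a and Bax, a classic target of the arrest and one of the death programme, were not analysed here.

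In the arrest group 2 of 12 rose and 1 fell. Sfn (14-3-3 sigma), which holds mitotic kinases in the cytoplasm, rose by 0.84 ± 0.14 (adjusted p = 0.00528), from an EGFP mean of 7.08, close to the dim level. Gadd45b, a stress sensor, rose by 1.09 ± 0.28 (0.0294, lost without EGFP replicate 1 or 3 or EVI1 replicate 2 or 3, at 0.0850 to 0.117). Gtse1, a G2 protein that also restrains p53, fell by 0.64 ± 0.12. The antiproliferative gene Btg2 (0.87 ± 0.26) did not pass at 0.0555 but did with a replicate block (0.0172). It also passed with array weights (0.0162), with further quantile normalisation (0.0444) and without EGFP replicate 2 (0.0268). Leaving out genes under the 25th percentile (0.0481) or under the median (0.0403) brought it under 0.05 too.

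In the cell death group 4 of 15 rose and 3 fell. Fas, the death receptor, read 9.08, 8.54 and 8.44 with EGFP and 11.16, 10.71 and 11.02 with EVI1. All EVI1 values stood well above the EGFP values, with a 4.86-fold rise (log2 2.28 ± 0.19, adjusted p = 0.000238). Trp53i11 rose by 1.63 ± 0.24 and the autophagy gene Dram1 by 0.79 ± 0.12, while Pidd1, the scaffold of the PIDDosome, fell by 0.68 ± 0.10. Bbc3 (PUMA), a trigger of mitochondrial death, was dim in both groups and did not pass (0.17 ± 0.10). Of 8 repair genes, Ddb2, which recognises ultraviolet damage, rose by 0.74 ± 0.15 and the sliding clamp Pcna fell by 0.48 ± 0.13, a call lost without EGFP replicate 1 or 3 or EVI1 replicate 1 or 2 (0.0828 to 0.108). Rev3l (-0.31) and Mgmt (0.18) did not pass.

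In the group of metabolic and other targets 4 of 14 rose and 1 fell. The lipid phosphatase Lpin1 rose by 0.78 ± 0.13 (adjusted p = 0.00472), the early response gene Ier5 by 0.67 ± 0.16, the peptide transporter Tap1 by 0.78 ± 0.19 and the lipase Abhd4 by 0.81 ± 0.20. Lpin1 kept its call in all 6 fits that left out 1 array. The other three kept it in 2 of 6 each: without EGFP replicate 1 their adjusted p was 0.0597, 0.0647 and 0.0686, and without EGFP replicate 3 it was 0.0681, 0.0747 and 0.0899. They also lost it without EVI1 replicate 1 or 2 (Ier5), 1 or 3 (Tap1) and 2 or 3 (Abhd4).

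**Figure D4:**
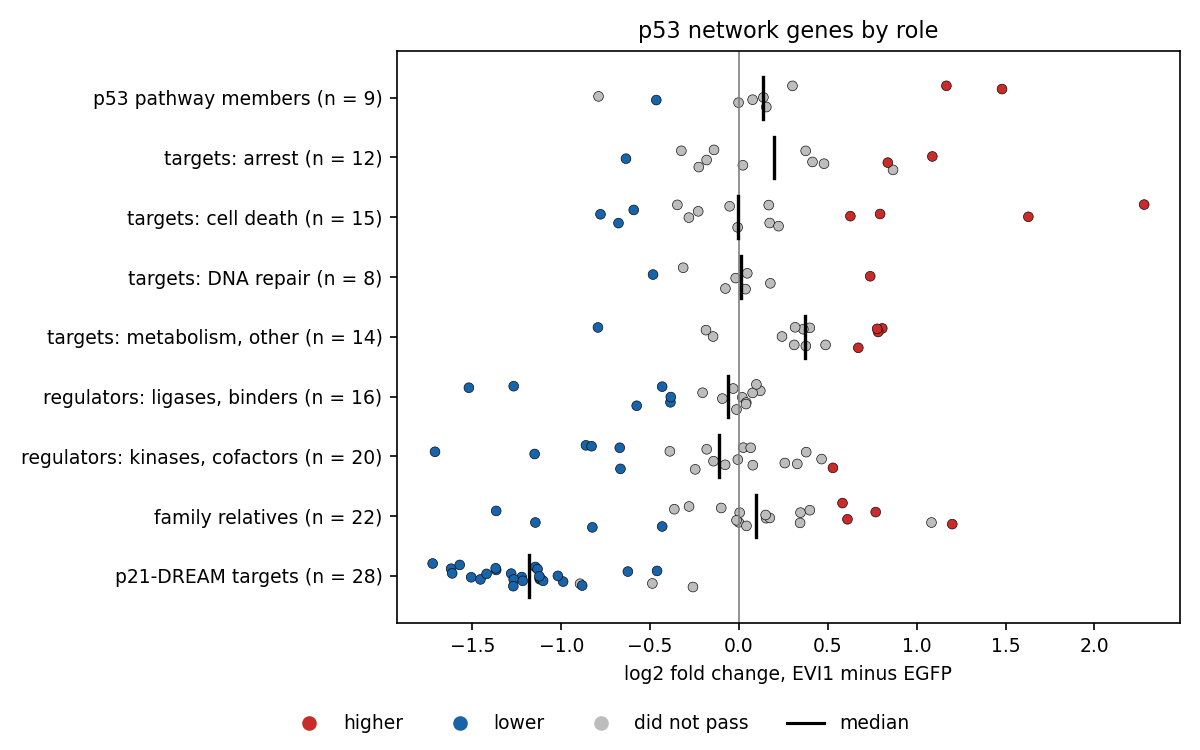
Log2 fold change, EVI1 minus EGFP (horizontal axis), of each measured gene of the p53 network, 1 row per role with the number of genes; points are red where the gene rose, blue where it fell and grey where it did not pass, and black ticks are medians. The p21-DREAM targets lie on the left throughout (median -1.18), and the p53 targets lie on both sides of 0. Vertical scatter within a row has no meaning, and Mdm4, Sesn2, Aurka, Plk1 and Plk4 are drawn in 2 rows.

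Genes that are repressed when p53 raises p21 and the DREAM complex forms, most of which drive DNA replication and mitosis, were lower as a body. Of 28 measured 25 fell, 3 did not pass and none rose by limma, at an adjusted or an unadjusted p under 0.05, with a median of -1.18. Over all genes 9.18% fell by adjusted p. The replicative helicase subunits Mcm4 (-1.62 ± 0.11), Mcm7 (-1.61 ± 0.13) and Mcm3 (-1.72 ± 0.15) and cyclin A2 (Ccna2, -1.22 ± 0.11) fell. All EVI1 values lay below all EGFP values for 28 of these genes, where 16.5% of all genes did. Any part of p53 in their fall was not tested.

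Interferon genes and markers of several cell types also differed between the groups, and their part in the changes of the p53 pathway genes was not tested. The same test called 9.06% of all genes higher and 9.18% lower, or 10.9% and 11.0% with a replicate block. Of 12 interferon genes 11 rose. Those of smallest p were Rsad2 (4.98 ± 0.14), Ddx58 (1.95 ± 0.17), Cmpk2 (1.94 ± 0.21) and Oasl2 (2.73 ± 0.30), and the mean level of the 12 was 7.67 to 8.20 in the EGFP arrays and 9.50 to 10.77 in the EVI1 arrays. Of 9 progenitor markers 6 fell and 2 rose, with mean levels of 10.27 to 10.33 and 9.57 to 9.68. Of 9 mast cell and basophil markers 8 fell, from 10.30 to 10.85 down to 9.05 to 9.29. Of 12 neutrophil markers 5 fell and 2 rose (9.48 to 10.09 against 8.50 to 9.07), of 9 monocyte and macrophage markers 3 fell, 6 with a replicate block, and 2 rose (9.21 to 9.64 against 8.72 to 9.34), and of 7 erythroid and megakaryocyte markers 3 rose and 1 fell (8.15 to 8.32 against 8.25 to 8.38). Of 10 stromal and endothelial markers 3 rose and 1 fell, 2 with a replicate block (7.33 to 7.54 against 7.96 to 8.23). The median log2 fold change of these 10 was only 0.06 and the highest 2.61, so the higher mean level does not describe most of them. Of 9 lymphoid markers 1 fell, 2 with a replicate block (6.20 to 6.31 against 6.08 to 6.24). That 1 call is 11.1% of the lymphoid list, where 18.2% of all genes were called. In such bulk samples a change in the share of a cell type cannot be told apart from a change in RNA per cell.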

How the data were processed

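Amplified, biotin-labelled cDNA from 6 mouse samples was hybridised to single-colour arrays. The authors deposited log2 intensities, 1 per probe set and array, made by RMA per the submitters' processing notes; its version and a genome build are not given in the sources used. RMA brings arrays to a common distribution, so a change of total RNA per cell would not appear.

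Of 34760 probe sets, 21640 carried 1 gene symbol, 1321 several and 11799 none here. Each of 19937 genes was represented by its brightest probe set, without a filter. Groups were compared with limma 3.58.1 in R 4.3.3 (lmFit, eBayes; two-sided; Benjamini-Hochberg over all genes; threshold 0.05), which was tested on simulated data. Intervals are 95% intervals of that fit. Same-numbered EVI1 and EGFP arrays deviated together across genes (r = 0.491, 0.269 and 0.197), so the fit with a replicate block is given beside a gene whose call it changed, or a count it moved by over 1.5 times. The alternatives were array weights, intensity trend, robust estimation, dim filters, other uses of probe sets, further normalisation and leaving out each array.

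The members and lists were chosen with earlier results of these data known, and lists are therefore described by counts and medians. Of 237 listed symbols, 21 could not be matched and were not analysed here. Named genes were all members, the 4 genes of smallest p in each list, Mdm4, Bbc3, Atm and Cdkn2a, and the 3 nearest patterns of Mdm2 and Trp53inp1. Genes outside this rule were named after their values were seen, as said beside them. The 4 per marker list were given as counts instead. Sfn, Siva1 and Pcna have 2 probe sets each, which had the same direction. Sequences and their coordinates come from RefSeq tables.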

Additional observations from a re-analysis of the deposited data

How the results depend on the processing

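Trp53inp1 kept its rise in all 16 alternatives, and Mdm2 and Ccng1 kept their sign and did not pass in any of the 16. Ephx1 (1.21 to 1.90) and Aen (-0.54 to -0.38) kept their direction when single arrays were left out and lost their calls in 4 and 5 of those fits. Zmat3 turned sign with array weights (0.065) and further quantile normalisation (0.015), and ranged from -0.087 to 0.14 over fits without 1 array. Phlda3 turned with array weights (-0.0072) and ranged from -0.053 to 0.17, and Cdkn2a from -0.035 to 0.12. Members higher numbered 2, 1 when genes under the median were left out (Ephx1 is among them), and 1 to 3 without 1 array; members lower numbered 1, and 0 to 1 without 1 array. Over fits without 1 array, other p53 targets higher ranged from 7 to 17 and lower from 4 to 6, regulators higher from 0 to 1 and lower from 7 to 12, relatives higher from 3 to 5 and lower from 3 to 5, p21-DREAM targets lower from 23 to 26, and all genes from 1179 to 2037 higher and from 1110 to 2061 lower. Regulators higher numbered 3 with a replicate block, and relatives higher 2 when genes under the 25th percentile were left out. The block changed no call of a member. It moved other p53 targets higher from 11 to 13 (Btg2 and Acad11, 0.0211), relatives higher from 4 to 5 (Isg20, 0.0476), p21-DREAM targets lower from 25 to 27 (Birc5, 0.00950, and Kif23, 0.0199), interferon genes higher from 11 to 12 (Usp18, 0.0260) and neutrophil markers lower from 5 to 7. Acad11, Isg20, Birc5, Kif23 and Usp18 were named after their values were seen. No array signal was set against a measured background, so differences of dim genes are uncertain in size.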
